A study of Arabidopsis thaliana with 12 samples.

Results

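The cysteine-rich receptor-like kinases (CRKs) of Arabidopsis thaliana were followed in rosette leaves of plants lacking PAD4 and of wild type, each given the signalling molecule 2'cADPR or water. The genes were chosen by their AGI codes, the locus identifiers of this species: CRK1 to CRK34, CRK36 to CRK42 and CRK45, 42 genes in all. Of these, 39 were in the table of 24228 genes, and 38 had enough counts to be among the 19652 genes tested. CRK32 (AT4G11480) was in the table with too few counts to be tested, and CRK1 (AT1G19090), CRK25 (AT4G05200) and CRK33 (AT4G11490) were not analysed here.

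A typical CRK spans the plasma membrane, with repeats of a cysteine-rich domain called DUF26 outside the cell and a serine/threonine kinase inside it. Family members have been tied to the sensing of pathogens and of reactive oxygen, to cell death and to the response to salicylic acid, the hormone of defence against biotrophic pathogens. PAD4 is a lipase-like protein that works with EDS1 and the helper receptor ADR1 downstream of TIR-domain immune receptors, whose enzyme activity makes 2'cADPR, an isomer of cyclic ADP-ribose.

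The 4 groups held 3 libraries each: pad4 after 2'cADPR, pad4 after water, wild type (Col-0) after 2'cADPR and wild type after water. The mutant was labelled a PAD4 knockout, and its allele is not stated in the labels, nor are dose, time or plant age. The labels do not say that the 3 libraries of a group came from separate plants, so the p-values measure only the spread between these libraries, which may be technical. The question, per the design text, was what 2'cADPR does and whether that depends on PAD4.

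Library totals lay between 35.8 and 44.4 M counts. PAD4 itself stood at 2.52 to 5.51 CPM, counts scaled to library size, in the 6 pad4 libraries. In wild type it stood at 518 to 590 CPM after 2'cADPR and at 63.9 to 75.0 CPM after water, so its level also differed with treatment. With both treatments pooled, the genotypes differed by -5.60 on the log2 scale with 0.5 CPM added (two-sided exact permutation, p = 0.00216, which is the lowest possible for 6 against 6). The leaf label fitted the markers: mesophyll genes (RBCS1A, CA1 and LHCB1.1) were abundant in every library, and the 3 root markers in the table summed to at most 0.0353 FPKM. FPKM, used for all levels below, are counts scaled to exon length and to TMM-adjusted library size, the usual FPKM unit. The mesophyll sum was 6052 to 6702 FPKM in wild type after 2'cADPR and 10326 to 13773 FPKM in the other 3 groups. The summed epidermal markers (ATML1, FDH and CER3) were at 81.7 to 105 FPKM in wild type after 2'cADPR and at 184 to 249 FPKM elsewhere. Guard cell and vascular markers moved less: in wild type, guard cell markers summed to 17.5 to 22.9 FPKM after 2'cADPR and 17.9 to 22.2 after water. Vascular markers summed to 77.7 to 80.9 FPKM and 87.0 to 93.6 FPKM in the same groups. Flower and seed markers, low throughout, summed to 0.188 to 0.449 FPKM in wild type after 2'cADPR and 0.633 to 0.723 FPKM after water. In bulk leaf RNA, fewer cells of a type and less RNA per cell cannot be told apart, and the part of these shifts in the values below was not tested. Among the wild-type water libraries, library 1 stood apart: 29 of the 38 tested CRKs were highest there, against 38.5% of all tested genes, with a median of 1.29 times the mean of libraries 2 and 3. The salicylic acid marker PR1 stood at 31.1 CPM in that library and at 1.94 and 2.48 CPM in libraries 2 and 3.

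The CRKs lie mostly on chromosome 4 (TAIR10). CRK5 to CRK24 form an unbroken run in the order of their numbers over 74.2 kb (chr4:12117491-12191704), 20 genes with 11 on the minus and 9 on the plus strand, all of them tested. The only other table gene inside the run was AT4G23271, within CRK19 on the opposite strand. The other 18 tested members lie outside it, among them CRK36 to CRK40 and CRK30, CRK31 and CRK34 in smaller groups on the same chromosome, CRK2 and CRK3 on chromosome 1, CRK4 on chromosome 3 and CRK42 on chromosome 5. CRK9, with a single coding exon, and CRK45 (ARCK1), with 1065 coding bases, had the shortest coding sequences, and CRK8 the longest, with 3132 bases, with nucleotide identity between neighbours of the run from 25.4% (CRK8 and CRK9) to 87.4% (CRK19 and CRK20). CRK45 is known as a cytosolic kinase that lacks the extracellular part.

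In wild type, most of the family was higher after 2'cADPR. Of 38 tested members, 28 rose, 5 fell and 5 did not pass (edgeR quasi-likelihood test, adjusted p under 0.05 by Benjamini-Hochberg over the 19652 genes). Of all genes tested, 69.2% were called in this comparison, 34.6% higher and 34.6% lower. A rise of at least 2-fold was called for 20 members, where 12.8% of all genes rose that far, and a fall of at least 2-fold for 3 members, against 17.8% of all genes. The 28 rises and the 20 of at least 2-fold include CRK26, which had enough counts to be tested only through treated wild type. The median log2 fold change was 1.06 over the tested members and -0.015 over all tested genes. The libraries did not overlap for 31 of 38 members, against 71.8% of all genes. In the chromosome 4 run 16 of 20 rose and 2 fell (median log2 1.15), and outside it 12 of 18 rose and 3 fell (median log2 0.87).

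**Figure D1:**
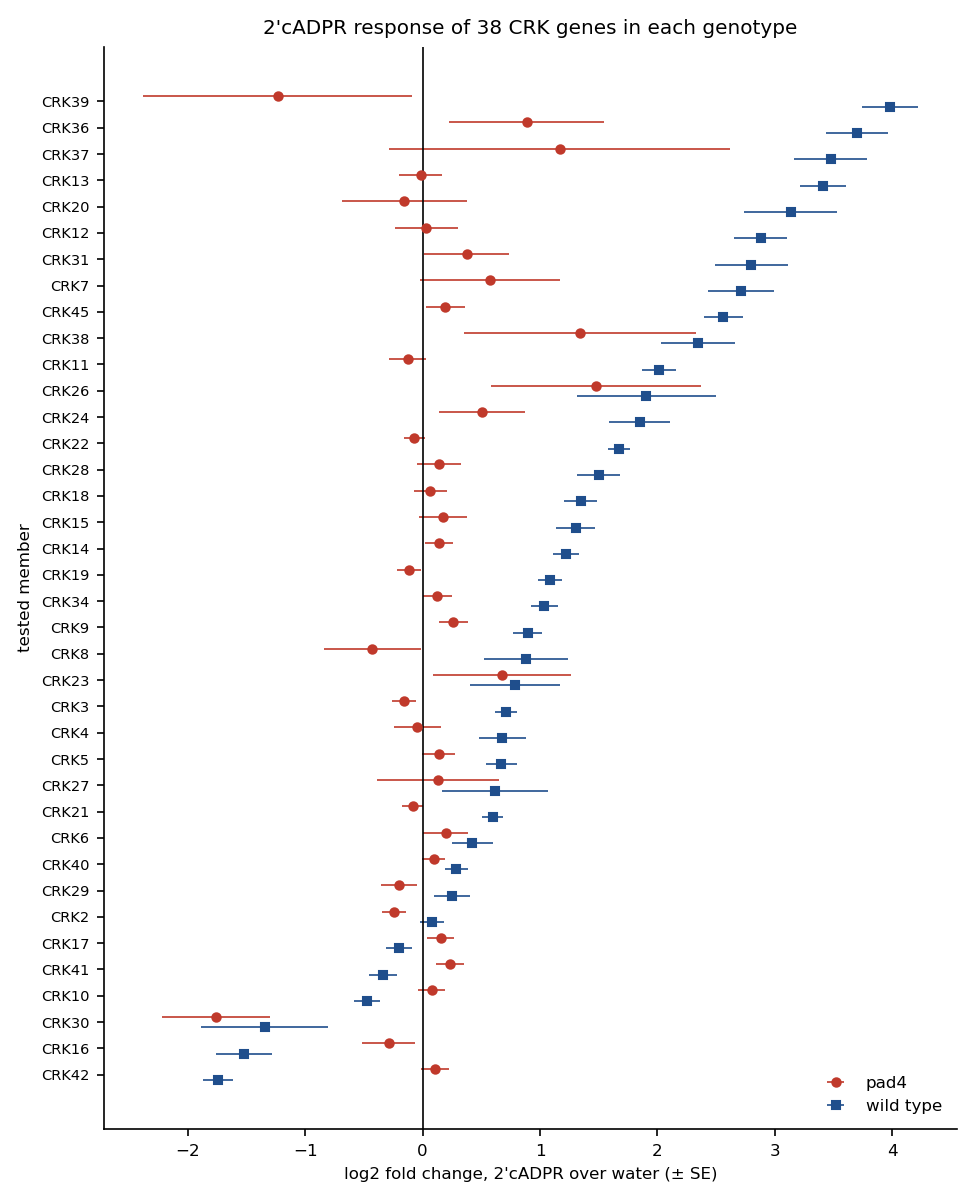
Log2 fold change after 2'cADPR over water (horizontal axis, ± SE) of the 38 tested members, one row each, in pad4 (circles) and in wild type (squares). The pad4 values run between -1.76 and 1.48, none of them called, and the wild-type values between -1.74 and 3.98.

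The summed level of the 39 members was 301 ± 9.14 FPKM in pad4 after 2'cADPR, 294 ± 30.4 FPKM in pad4 after water, 2021 ± 203 FPKM in wild type after 2'cADPR and 701 ± 87.9 FPKM in wild type after water (SD, n = 3 each). As shares of all counts these were 0.0761% in pad4 after 2'cADPR, 0.0736% in pad4 after water, 0.445% in wild type after 2'cADPR and 0.162% in wild type after water. CRK13 and CRK45 together made up 9.05% of the summed FPKM in pad4 after 2'cADPR and 8.89% after water, against 43.7% in wild type after 2'cADPR and 16.9% after water. Without these 2 genes the sums were 274 FPKM in pad4 after 2'cADPR, 268 FPKM in pad4 after water, 1138 FPKM in wild type after 2'cADPR and 583 FPKM in wild type after water, so treated wild type was the highest group either way. The 20 genes of the run held 57.9% to 63.0% of the sum in every group mean.

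**Figure D2:**
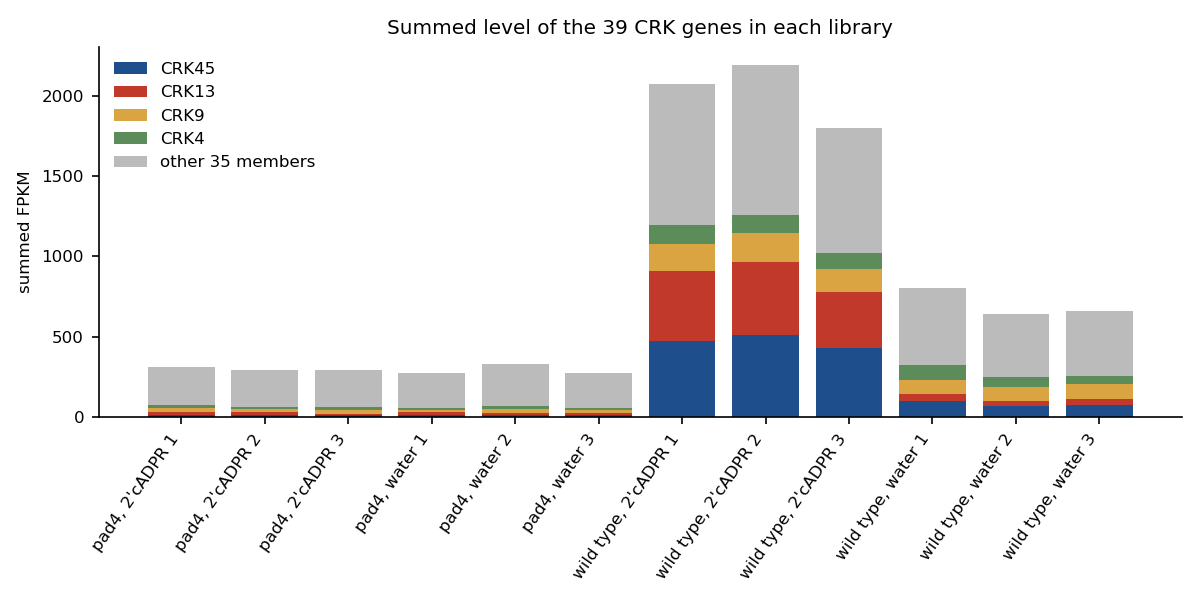
Summed FPKM of the 39 members (vertical axis) in each of the 12 libraries, stacked as CRK45, CRK13, CRK9, CRK4 and the other 35 members. The 6 pad4 libraries reach 276 to 329 FPKM, the 3 treated wild-type libraries 1797 to 2193 FPKM, and the 3 wild-type water libraries 644 to 802 FPKM.

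CRK13 (AT4G23210), whose overexpression is known to give cell death and salicylic acid build-up, was among the strongest responders and the second most abundant member in treated wild type. It stood at 14.3, 18.7 and 11.1 FPKM in pad4 after 2'cADPR, 16.7, 15.04 and 12.96 in pad4 after water, 433, 452 and 347 in wild type after 2'cADPR and 43.2, 29.5 and 43.1 in wild type after water. The treated wild-type libraries were far above the other 9, and both wild-type groups lay above pad4 without overlap. The rise in wild type was 3.41 ± 0.19 on the log2 scale (SE; edgeR adjusted p = 7.29e-10). CRK4 (AT3G45860), CRK5 (AT4G23130) and CRK20 (AT4G23280) are relatives also known to be induced by salicylic acid or pathogens and to give cell death when induced. CRK20 had 0.139, 0.314 and 0.0661 FPKM in pad4 after 2'cADPR, 0.122, 0.141 and 0.319 in pad4 after water, 5.12, 5.59 and 3.90 in wild type after 2'cADPR and 0.858, 0.365 and 0.444 in wild type after water. It was scarce outside treated wild type, and its rise was 3.13 ± 0.39 (SE), adjusted p = 4.11e-06 by edgeR. CRK4, one of the most abundant members, had 18.2, 12.4 and 15.4 FPKM in pad4 after 2'cADPR, 11.7, 19.6 and 16.2 in pad4 after water, 114, 111 and 98.4 in wild type after 2'cADPR and 89.8, 61.5 and 50.6 in wild type after water. Its rise was smaller, 0.68 ± 0.20 (SE), adjusted p = 0.00675 by edgeR, with water library 1 the nearest to the treated libraries. CRK5 had 8.77, 8.27 and 8.64 FPKM in pad4 after 2'cADPR, 6.44, 10.4 and 6.56 in pad4 after water, 37.8, 38.99 and 35.4 in wild type after 2'cADPR and 25.6, 23.5 and 21.3 in wild type after water, and the wild-type groups did not overlap. Its log2 fold change in wild type was 0.67 ± 0.13 (SE).

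**Figure D3:**
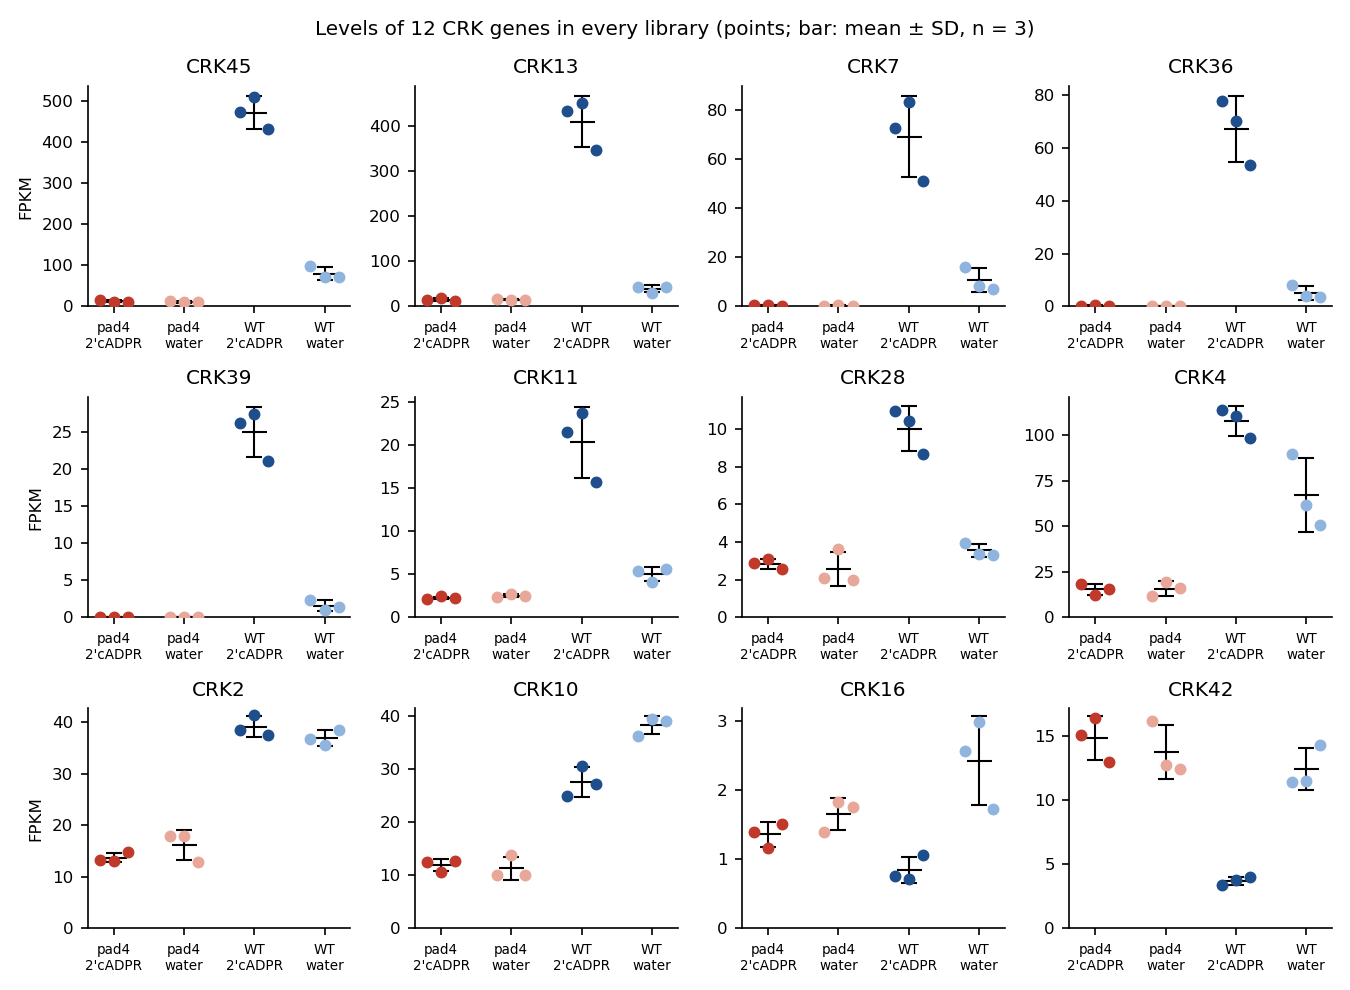
FPKM (vertical axes, linear, from 0) of 12 members in every library, one panel each, with points for the 3 libraries of each group and a bar for the mean ± SD. CRK45, CRK13, CRK7, CRK36, CRK39, CRK11, CRK28 and CRK4 are highest in treated wild type, the wild-type groups of CRK2 overlap, and CRK10, CRK16 and CRK42 are lower in wild type after 2'cADPR than after water.

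Members known to work with receptors of bacterial patterns gave unequal changes. CRK36 (AT4G04490), which binds and phosphorylates the receptor-associated kinase BIK1, stood at 0.269, 0.409 and 0.133 FPKM in pad4 after 2'cADPR, 0.145, 0.193 and 0.103 in pad4 after water, 77.7, 70.2 and 53.4 in wild type after 2'cADPR and 8.17, 3.80 and 3.56 in wild type after water. The wild-type groups did not overlap and were above pad4, and the rise was 3.70 ± 0.27 (SE), adjusted p = 9.30e-09 by edgeR. CRK45 (AT4G11890), a reported partner of CRK36, was the most abundant member in treated wild type, with 15.8, 11.3 and 10.5 FPKM in pad4 after 2'cADPR, 13.5, 9.70 and 9.76 in pad4 after water, 475, 511 and 432 in wild type after 2'cADPR and 97.4, 70.7 and 72.3 in wild type after water. Its log2 fold change was 2.56 ± 0.17 (SE). As for CRK36, no library of one wild-type group lay in the range of the other, and all pad4 libraries were below both. CRK28 (AT4G21400), which associates with the co-receptor BAK1, had 2.86, 3.07 and 2.54 FPKM in pad4 after 2'cADPR, 2.11, 3.61 and 1.98 in pad4 after water, 10.97, 10.4 and 8.67 in wild type after 2'cADPR and 3.97, 3.35 and 3.33 in wild type after water. It rose by 1.5 ± 0.18 on the log2 scale (SE). CRK29 (AT4G21410), its close copy next to it, had 2.92, 3.06 and 2.72 FPKM in pad4 after 2'cADPR, 3.15, 4.01 and 2.86 in pad4 after water, 4.11, 3.04 and 3.49 in wild type after 2'cADPR and 3.33, 2.44 and 3.17 in wild type after water. The 4 groups of CRK29 overlapped, and its log2 fold change in wild type was 0.25 ± 0.15 (SE), adjusted p = 0.162 by edgeR, short of the threshold. CRK28 and CRK29 share 85.6% of their coding bases and overlap at their ends on the same strand, and the rule by which reads there were assigned is not stated.

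CRK6 (AT4G23140) and CRK7 (AT4G23150), adjacent genes known for a part in protection from extracellular reactive oxygen, share 80.8% of their coding bases. CRK7 had 0.404, 0.653 and 0.219 FPKM in pad4 after 2'cADPR, 0.210, 0.463 and 0.187 in pad4 after water, 72.6, 83.5 and 51.1 in wild type after 2'cADPR and 16.2, 8.45 and 7.06 in wild type after water. The groups of wild type did not overlap, and the rise was 2.71 ± 0.28 (SE), adjusted p = 5.66e-07 by edgeR. CRK6 had 8.87, 6.94 and 8.57 FPKM in pad4 after 2'cADPR, 5.45, 8.58 and 7.22 in pad4 after water, 59.2, 73.5 and 61.6 in wild type after 2'cADPR and 64.1, 43.1 and 37.7 in wild type after water. Water library 1 lay among the treated libraries, and the change of 0.42 ± 0.18 (SE), adjusted p = 0.045 was at the edge of the threshold. The call for CRK6 was lost when any of 7 single libraries was left out, at log2 values of 0.27 to 0.48, and the value was 0.70 without water library 1. DESeq2, the filter of 5 CPM and the replicate block also gave no call for CRK6. Among the other rises, CRK8 (log2 0.88) lost its call without any one of 4 libraries, at 0.63 to 0.98, and CRK26 (1.90) without any one of 3, at 1.36 to 1.62. CRK26 had 75, 38 and 25 counts in wild type after 2'cADPR and 21, 5 and 7 after water. It passed the count filter only through treated wild type, so its rise is given as a value and not as support. CRK2 (AT1G70520), which phosphorylates the oxidase RBOHD, had 13.2, 13.1 and 14.7 FPKM in pad4 after 2'cADPR, 17.9, 17.8 and 12.9 in pad4 after water, 38.5, 41.3 and 37.4 in wild type after 2'cADPR and 36.6, 35.6 and 38.5 in wild type after water. Its wild-type groups overlapped, and its change in wild type was not called (0.08 ± 0.10 (SE), adjusted p = 0.482).

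The largest rises outside these roles were those of CRK39, CRK37, CRK12 and CRK31. CRK39 (AT4G04540) had 0.0271, 0 and 0.0187 FPKM in pad4 after 2'cADPR, 0.0188, 0.0737 and 0.0186 in pad4 after water, 26.3, 27.5 and 21.2 in wild type after 2'cADPR and 2.36, 1.02 and 1.38 in wild type after water. Its log2 fold change in wild type was 3.98 ± 0.24 (SE), adjusted p = 1.43e-09 by edgeR, the largest in the family. Its neighbour CRK40 (AT4G04570), with 86.3% of the coding bases in common, had 45.6, 47.99 and 48.3 FPKM in wild type after 2'cADPR, against 45.8, 35.00 and 35.5 FPKM after water, and its change was 0.29 ± 0.10 (SE). That call for CRK40 was lost without water library 2 or 3, at adjusted p = 0.0866 and 0.0814 by edgeR, and the value was 0.44 without water library 1. CRK37 (AT4G04500) had 0.0817, 0.0200 and 0.0211 FPKM in pad4 after 2'cADPR, 0, 0.0312 and 0.0211 in pad4 after water, 24.04, 28.1 and 16.04 in wild type after 2'cADPR and 3.25, 1.87 and 1.06 in wild type after water. In wild type this was a rise of 3.48 ± 0.31 on the log2 scale (SE). CRK12 (AT4G23200) had 1.13, 0.921 and 1.05 FPKM in pad4 after 2'cADPR, 0.660, 0.821 and 1.55 in pad4 after water, 26.9, 29.1 and 19.6 in wild type after 2'cADPR and 4.20, 3.09 and 3.005 in wild type after water. CRK31 (AT4G11470) had 0.262, 0.332 and 0.220 FPKM in pad4 after 2'cADPR, 0.111, 0.336 and 0.180 in pad4 after water, 2.86, 3.28 and 3.33 in wild type after 2'cADPR and 0.614, 0.354 and 0.392 in wild type after water. For CRK39, CRK37, CRK12 and CRK31 the treated wild-type libraries lay above the other 9 without overlap, with log2 rises in wild type of 2.88 for CRK12 and 2.80 for CRK31. CRK11 (AT4G23190), a gene known to be induced by salicylic acid and pathogens, had 2.18, 2.42 and 2.23 FPKM in pad4 after 2'cADPR, 2.31, 2.66 and 2.48 in pad4 after water, 21.5, 23.7 and 15.7 in wild type after 2'cADPR and 5.36, 4.08 and 5.63 in wild type after water. In wild type the log2 rise was 2.02 ± 0.15 (SE).

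CRK32 had 0 counts over the 3 libraries of pad4 after 2'cADPR, 0 in pad4 after water, 48 in wild type after 2'cADPR and 2 in wild type after water. The ratio in wild type was 22, with a 95% exact interval of 5.76 to 187 that covers counting error only. After 2'cADPR it was at least 16.8-fold lower in pad4 than in wild type, against a floor of 3 counts over the group.

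Of the members that fell in wild type, CRK42 (AT5G40380) changed most. It had 15.1, 16.4 and 13.03 FPKM in pad4 after 2'cADPR, 16.2, 12.8 and 12.4 in pad4 after water, 3.37, 3.79 and 3.99 in wild type after 2'cADPR and 11.5, 11.5 and 14.3 in wild type after water. The treated wild-type libraries were below the other 9, and the change was -1.74 ± 0.13 (SE), adjusted p = 1.16e-08 by edgeR. CRK16 (AT4G23240) had 1.40, 1.17 and 1.51 FPKM in pad4 after 2'cADPR, 1.40, 1.83 and 1.75 in pad4 after water, 0.765, 0.710 and 1.06 in wild type after 2'cADPR and 2.57, 2.99 and 1.73 in wild type after water, a log2 change of -1.52 ± 0.24 (SE), adjusted p = 3.62e-05. CRK10 (AT4G23180), known from a gain-of-function allele that dwarfs the plant, had 12.5, 10.6 and 12.8 FPKM in pad4 after 2'cADPR, 10.1, 13.8 and 10.1 in pad4 after water, 24.9, 30.6 and 27.3 in wild type after 2'cADPR and 36.3, 39.5 and 39.1 in wild type after water. It fell by 0.47 on the log2 scale in wild type, where the groups did not overlap, and was still above every pad4 library. CRK41 (AT4G00970) had 14.8, 13.4 and 12.1 FPKM in pad4 after 2'cADPR, 10.2, 13.9 and 10.3 in pad4 after water, 9.34, 11.3 and 10.02 in wild type after 2'cADPR and 13.8, 12.2 and 12.8 in wild type after water. Its fall of 0.34 on the log2 scale in wild type was not called without treated library 1 or 3 or water library 1. CRK30 (AT4G11460) had few counts in wild type, with 0.164, 0.260 and 0.179 FPKM in pad4 after 2'cADPR, 0.541, 0.912 and 0.603 in pad4 after water, 0.0580, 0.113 and 0.0393 in wild type after 2'cADPR and 0.212, 0.0754 and 0.253 in wild type after water. The wild-type groups overlapped, and the log2 change of -1.35 ± 0.54 (SE), adjusted p = 0.0388 was not called without treated library 1 or 3 or water library 1 or 3, so that 3 members were called lower without treated library 1, treated library 3 or water library 1.

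The promoter windows of 6 members are shown because these genes span the range of response: CRK13, CRK11, CRK45 and CRK36 rose strongly, and CRK16 and CRK42 fell. Each window runs from 250 bases before to 50 bases after the annotated start, read 5′ to 3′ on the gene's strand from the RefSeq TAIR10.1 genome. Capitals mark the core of the W box, the motif that WRKY factors bind, as TTGAC or, on the other strand, GTCAA. The windows are chr4:12151589-12151888, minus strand for CRK13; chr4:12143809-12144108, minus strand for CRK11; chr4:7147615-7147914, plus strand for CRK45; chr4:2234640-2234939, minus strand for CRK36; chr4:12163144-12163443, minus strand for CRK16; and chr5:16151272-16151571, plus strand for CRK42.
CRK13: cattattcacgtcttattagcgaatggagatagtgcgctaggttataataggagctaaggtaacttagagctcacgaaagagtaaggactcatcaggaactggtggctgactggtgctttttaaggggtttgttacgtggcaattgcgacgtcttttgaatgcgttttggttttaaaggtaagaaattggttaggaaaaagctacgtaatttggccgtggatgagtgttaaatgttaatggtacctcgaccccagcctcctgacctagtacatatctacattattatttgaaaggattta
CRK11: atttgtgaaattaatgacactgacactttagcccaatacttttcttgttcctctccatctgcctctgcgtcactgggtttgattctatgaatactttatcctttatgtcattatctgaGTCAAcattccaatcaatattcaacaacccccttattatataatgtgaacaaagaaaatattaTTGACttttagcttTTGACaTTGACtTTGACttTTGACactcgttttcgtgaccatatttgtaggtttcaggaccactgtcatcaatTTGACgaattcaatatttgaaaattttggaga
CRK45: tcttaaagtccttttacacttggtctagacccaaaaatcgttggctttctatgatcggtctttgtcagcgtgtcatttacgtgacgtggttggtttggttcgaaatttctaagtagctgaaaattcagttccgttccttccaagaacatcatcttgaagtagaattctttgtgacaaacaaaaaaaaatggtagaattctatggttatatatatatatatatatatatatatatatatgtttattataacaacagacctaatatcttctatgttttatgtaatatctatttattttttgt
CRK36: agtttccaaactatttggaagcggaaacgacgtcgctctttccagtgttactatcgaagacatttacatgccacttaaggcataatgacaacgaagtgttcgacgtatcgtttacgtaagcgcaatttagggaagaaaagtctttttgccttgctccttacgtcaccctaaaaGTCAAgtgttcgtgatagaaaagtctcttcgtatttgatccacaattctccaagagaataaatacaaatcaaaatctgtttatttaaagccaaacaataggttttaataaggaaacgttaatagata
CRK16: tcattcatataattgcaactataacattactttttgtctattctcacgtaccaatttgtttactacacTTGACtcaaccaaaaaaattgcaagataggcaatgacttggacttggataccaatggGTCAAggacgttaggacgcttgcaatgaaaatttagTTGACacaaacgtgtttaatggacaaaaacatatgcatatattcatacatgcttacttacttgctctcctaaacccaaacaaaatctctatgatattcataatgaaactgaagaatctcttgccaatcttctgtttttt
CRK42: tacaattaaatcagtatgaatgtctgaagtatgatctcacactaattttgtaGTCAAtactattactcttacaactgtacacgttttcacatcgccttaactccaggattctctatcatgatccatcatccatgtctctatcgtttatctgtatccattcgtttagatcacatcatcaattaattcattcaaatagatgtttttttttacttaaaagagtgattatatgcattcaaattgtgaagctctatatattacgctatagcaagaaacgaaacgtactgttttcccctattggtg

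CRK11 carried 7 copies of this core in its window, CRK16 carried 3, CRK36 and CRK42 1 each, and CRK13 and CRK45 none. The CRK16 window lies wholly within the annotated span of CRK17 (chr4:12162004-12167026, minus strand). Over the family, 74.4% of the 39 windows held at least 1 copy, against 50.8% of 22593 windows of protein-coding genes in the table, with means of 1.54 and 0.754 copies. At least 3 copies were in 23.1% of the members and 5.06% of all genes. In the 1000 bases upstream, 97.4% of members and 88.1% of all genes had a copy. In wild type 8 of 10 tested members without a copy rose (median log2 1.11), as did 15 of 20 with 1 or 2 copies (1.06) and 5 of 8 with 3 or more (1.01), and a relation between copies and response was not tested. A match is a description of the letters in these windows and not a binding site.

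In pad4, no member was called after 2'cADPR (0 of 38 by edgeR and 0 by DESeq2), where 0.00509% of all genes, a single gene, was called. At an unadjusted edgeR p under 0.05 there were 2 of 38 members, CRK30 and CRK2, and 992 of all 19652 genes tested. The lowest adjusted p among the members was 0.643. The median log2 fold change was 0.12, and the values ran from -1.76 for CRK30 to 1.48 for CRK26. The 3 libraries of each pad4 group did not overlap for 2 of 38 members, CRK30 and CRK26, against 13.0% of all genes. CRK30, given above, had 66 counts over the 3 pad4 libraries after 2'cADPR, against 219 over the 3 after water. CRK26 had 0.0730, 0.0409 and 0.0431 FPKM after 2'cADPR, against 0.0217, 0.0213 and 0.0108 FPKM after water in pad4, that is 15 counts against 5 in all. For well-measured members the interval was narrow: CRK13 changed by -0.02 ± 0.18 and CRK45 by 0.19 ± 0.17 on the log2 scale (SE). For CRK37, CRK38 and CRK39, with 4 to 12 counts over the 3 libraries of a pad4 group, the SE was 0.99 to 1.45, and changes of that size were not detectable at this depth.

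The difference between the responses, pad4 minus wild type, was tested as the interaction. It was called for 26 of 38 members, 22 lower and 4 higher, where 57.6% of all genes were called, 28.2% lower and 29.4% higher. The median was -0.96 on the log2 scale over the members and 0.0097 over all tested genes. CRK39 had the most negative value, -5.22 ± 1.24 (SE), adjusted p = 0.00221 by edgeR. That call was lost without pad4 water library 2, the library with 8 of its 12 counts in that group (log2 -4.27, adjusted p = 0.0611). CRK13 had -3.43 ± 0.26 (SE), adjusted p = 4.91e-08, CRK20 -3.29, CRK12 -2.85 and CRK36 -2.81. CRK31, CRK45, CRK11 and CRK28 had -2.42, -2.37, -2.14 and -1.36, all called. CRK7 had -2.14, and without pad4 water library 2 it was no longer called (log2 -1.61, adjusted p = 0.131). CRK4 (-0.72) and CRK5 (-0.54) were called near the threshold: CRK4 lost the call without any of 8 libraries, at log2 -0.54 to -0.72, and CRK5 without any of 4, at -0.27 to -0.51. Of the 5 members that fell in wild type, 4 were called higher in the interaction: CRK42 at 1.85 ± 0.17 (SE), adjusted p = 4.38e-07, CRK16 at 1.23, CRK41 at 0.57 and CRK10 at 0.55. The fifth, CRK30, had -0.42 ± 0.74 (SE), adjusted p = 0.653, and was not called. Among the 12 members not called were CRK37 (-2.31 ± 1.87 (SE), adjusted p = 0.311) and CRK38 (-1.0 ± 1.30), both called in wild type, with few counts in pad4. CRK2, not called at -0.33, was called without pad4 water library 3 (-0.46), and CRK29, at -0.45, without any one of 3 libraries (-0.55 to -0.56).

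After water alone, the family was already lower in pad4 than in wild type. Of 38 members 29 were lower, 3 were higher and 6 did not pass, where 29.2% of all genes were called, 17.5% lower and 11.7% higher. At least 2-fold lower were 26 members and 6.21% of all genes. The median log2 difference was -1.46 over the members and 0.0017 over all genes, and the groups did not overlap for 32 of 38 members, against 43.7% of all genes. The largest differences were those of CRK37, CRK38, CRK39, CRK7 and CRK36, at log2 -6.76, -5.92, -5.36, -5.19 and -5.12. CRK7 averaged 0.286 ± 0.153 FPKM in pad4 and 10.6 ± 4.92 FPKM in wild type (SD, n = 3 each), or 2.71% of the wild-type level. CRK36 averaged 0.147 ± 0.0450 FPKM in pad4 and 5.18 ± 2.59 FPKM in wild type, or 2.83%. CRK45 stood at 13.7% of wild type (log2 -2.87 ± 0.17 (SE), adjusted p = 1.12e-08 by edgeR), CRK6 at 14.7% and CRK13 at 38.6%.

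Members close to the threshold depended on single libraries in this comparison. CRK20 (log2 -1.5) and CRK31 (-1.11) lost their calls without wild-type water library 1, at -1.05 and -0.83, or without either of 2 pad4 water libraries. CRK27 (-1.54) lost its call without any one of 5 libraries, at -1.66 to -1.32. CRK26 (-2.81) lost it without wild-type water library 1 or pad4 water library 3, at -1.88 and -2.57, and CRK8 (-1.28) without wild-type water library 1 or pad4 water library 1, at -0.95 and -1.02. CRK18, CRK28 and CRK41, not called, passed without pad4 water library 2, at -0.50, -0.80 and -0.34, and CRK16 without wild-type water library 3, at -0.74. Higher in pad4 were CRK30 (log2 1.92) and 2 neighbours in the run, CRK21 and CRK22. CRK21 (AT4G23290) had 36.2, 38.3 and 41.8 FPKM in pad4 and 23.4, 23.4 and 29.9 FPKM in wild type, a difference of 0.60 ± 0.09 (SE), adjusted p = 1.46e-04 by edgeR. CRK22 (AT4G23300) had 18.4, 23.1 and 22.1 FPKM in pad4 and 14.9, 12.3 and 15.02 FPKM in wild type, without overlap, and shares 16.2% of its exon windows of 50 bases with CRK13. CRK16, CRK18, CRK28, CRK29, CRK41 and CRK42 were the members not called, and their groups overlapped.

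After 2'cADPR, 32 members were lower in pad4 than in wild type, 4 were higher and 2 did not pass, where 74.2% of all genes were called, 36.8% lower and 37.4% higher. At least 2-fold lower were 31 members and 18.5% of all genes. The members include CRK26, tested only through its counts in treated wild type. The median log2 difference was -2.70, against 0.021 over all genes, and 36 of 38 members did not overlap, against 77.1% of all genes. This comparison shares its libraries with the others and is given for its levels. CRK13 stood at 3.58% of the wild-type level and CRK45 at 2.65%, CRK7 at 0.615%, CRK36 at 0.403% and CRK39 at 0.0611%. For CRK39 these were 5 counts in pad4 and 7879 in wild type over 3 libraries each. Higher in pad4 were CRK42 (log2 2.0 ± 0.13 (SE), adjusted p = 1.35e-09 by edgeR), CRK30 (1.5), CRK16 (0.69) and CRK41 (0.39). The calls for CRK16 and CRK30 were each lost without any one of 3 libraries, and 2 members were called higher without treated wild-type library 1. CRK21, at 35.00, 37.5 and 37.3 FPKM in pad4 and 39.8, 36.2 and 40.1 FPKM in wild type, and CRK29 were not called.

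The order of levels within the family differed between groups. In pad4 CRK21, CRK18 and CRK40 had the highest FPKM after 2'cADPR and after water, at group means of 36.6, 29.8 and 26.7 after 2'cADPR and 38.8, 28.4 and 24.9 after water. In treated wild type CRK45 (473 ± 39.5 FPKM, SD) and CRK13 (411 ± 56.2) led, followed by CRK9 (AT4G23170) at 164 ± 20.3. CRK45 and CRK13 overlapped there, and CRK9 was below both in every library. In wild type after water CRK9 (88.5 ± 3.77 FPKM) and CRK45 (80.1 ± 14.97 FPKM) led and overlapped, and CRK4 followed at 67.3 ± 20.2 FPKM. CRK21 ranked 14 of 39 in treated wild type and 12 in wild type after water.

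Within the chromosome 4 run, the ratio between neighbouring genes changed after 2'cADPR in wild type in most pairs, at a share near that of neighbouring genes in general. The log2 ratio of the length-scaled counts of 2 neighbours was taken in each library, which does not depend on the scaling between libraries. In wild type the ratio did not overlap between 2'cADPR and water for 15 of 19 neighbouring pairs, against 70.1% of 15133 neighbouring pairs of genes across the genome. It moved by at least 1 log2 unit in 11 pairs, against 44.2%, and the median absolute change was 1.30 for the run and 0.94 for all pairs. An exact permutation of 3 against 3 cannot go below p = 0.1. Values that do not overlap give that p by definition, so it adds nothing to the 15 pairs.

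**Figure D4:**
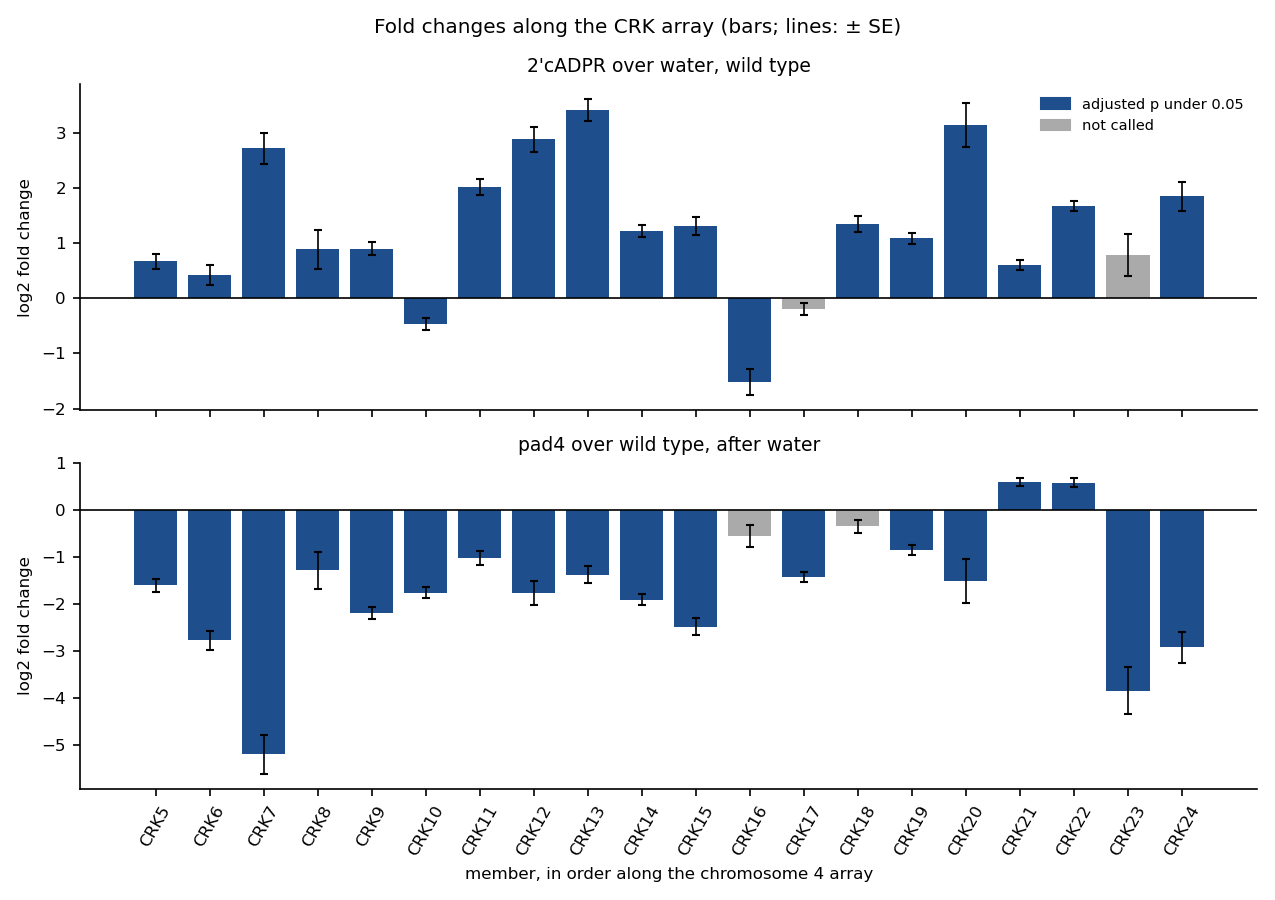
Log2 fold change (vertical axis, ± SE) of the 20 genes of the run in their order along chromosome 4, for 2'cADPR over water in wild type (upper panel) and pad4 over wild type after water (lower panel). CRK16 at -1.52 sits 2 places from CRK18 at 1.35 in the upper panel, and CRK21 and CRK22 are the 2 bars above 0 in the lower panel.

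The ratio of CRK15 to CRK16 was 4.95, 5.09 and 4.45 in wild type after 2'cADPR and 2.19, 1.57 and 2.27 after water, the largest change, 2.82. That of CRK20 to CRK21, which lie tail to tail with 157 bases between them, was -2.96, -2.70 and -3.36 after 2'cADPR and -4.76, -5.98 and -6.06 after water. The ratio of CRK10 to CRK11 changed by -2.48 and that of CRK6 to CRK7 by -2.32. For CRK19 and CRK20, the neighbours of highest identity in the run, the ratio changed by -2.12. It was 3.56, 3.53 and 3.78 after 2'cADPR and 5.13, 6.17 and 5.93 after water. The ratio of CRK13 to CRK14 changed by 2.20. Ratios overlapped for CRK5 to CRK6, CRK8 to CRK9, CRK14 to CRK15 and CRK22 to CRK23. Head-to-head pairs, which share the space between their starts, were CRK5 and CRK6, CRK18 and CRK19, and CRK21 and CRK22, with changes of 0.22, 0.27 and -1.07.

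Between the genotypes after water, the ratio did not overlap for 14 of 19 pairs, against 43.1% of all pairs, and moved by at least 1 log2 unit in 7, against 14.0% of all pairs. CRK22 to CRK23 had 7.02, 7.16 and 9.69 in pad4 and 2.52, 3.40 and 4.11 in wild type, a difference of 4.61. CRK23 had only 18, 21 and 3 counts in these pad4 libraries, and the SD of the pad4 ratios was 1.51. CRK7 to CRK8 had 0.60, 0.82 and -0.62 in pad4 and 4.35, 3.93 and 4.32 in wild type, a difference of -3.93. CRK21 to CRK22, the pair that was higher in pad4, differed by 0.02 and overlapped. Of 11 table genes flanking the run or enclosed in it 7 were tested, and 5 of the 7 were called in wild type, near the 69.2% of all genes: 3 rose (AT4G23040, AT4G23050 and IQD22, at log2 0.59, 0.56 and 0.71) and 2 fell (GSH1, the first enzyme of glutathione synthesis, at -0.78, and the aquaporin gene PIP1;5 at -1.63). None of the 7 was called in pad4 (0.00509% of all genes), and after water 1 of the 7 was called, as higher in pad4 (29.2% of all genes in either direction).

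Reads of close copies could have been counted for the wrong gene. Windows of 50 bases were compared between the exons of all members: CRK13 and CRK22 shared 365, which is 15.4% of the windows of CRK13 and 16.2% of those of CRK22. CRK6 and CRK8 shared 452, CRK39 and CRK40 110, CRK17 and CRK18 87, and CRK19 and CRK20 62. CRK16 and CRK17 share part of their span on the same strand, with 629 windows in common, and CRK10 and CRK11 on opposite strands. CRK28 and CRK29, which also overlap, had 451 windows in common. How far the values of these genes were affected was not tested, and the shared windows set no bound on it. A scarce copy is more exposed than an abundant one. Over the group means CRK8 had 0.172 to 1.04 FPKM and CRK6 7.08 to 64.8, and CRK20 had 0.173 to 4.87 FPKM and CRK19 14.5 to 59.6.

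Relatives outside the list of CRKs, most of them with the same extracellular domain and no kinase, moved in both directions. Of 11 tested, 7 rose and 4 fell in wild type (median log2 0.89), against 34.6% of all genes higher and 34.6% lower. None was called in pad4, as was the case for all genes but 1. PDLP5, which closes plasmodesmata in salicylic acid signalling, averaged 1.76 ± 0.16 FPKM in pad4 after 2'cADPR, 1.89 ± 0.21 in pad4 after water, 70.3 ± 13.8 in wild type after 2'cADPR and 5.78 ± 0.46 in wild type after water (SD, n = 3 each; log2 3.61 in wild type). PDLP3, another plasmodesmal protein, averaged 16.0 ± 1.12 FPKM in pad4 after 2'cADPR, 19.3 ± 2.07 in pad4 after water, 0.199 ± 0.013 in wild type after 2'cADPR and 8.48 ± 1.05 in wild type after water. It fell by 5.40 on the log2 scale in wild type. The relative AT3G22060, which has no kinase domain, rose by 2.10. The interaction was called for 5 of the 11 as lower and 3 as higher, against 28.2% and 29.4% of all genes. After water 5 were lower and 1 was higher in pad4, against 17.5% and 11.7% of all genes. After 2'cADPR 7 were lower and 3 higher in pad4, against 36.8% and 37.4% of all genes.

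Reported partners and regulators of CRKs were also higher in wild type after 2'cADPR: 11 of 12 rose and none fell (median log2 1.51), against the 34.6% of all genes that rose. The co-receptor gene BAK1 averaged 19.9 ± 0.90 FPKM in pad4 after 2'cADPR, 19.6 ± 0.87 in pad4 after water, 82.9 ± 5.94 in wild type after 2'cADPR and 29.1 ± 3.0 in wild type after water. WRKY18, a factor that binds the W box, averaged 8.70 ± 2.65 FPKM in pad4 after 2'cADPR, 9.63 ± 1.37 in pad4 after water, 282 ± 25.2 in wild type after 2'cADPR and 36.4 ± 7.42 in wild type after water. WRKY33, of the same family, averaged 5.86 ± 0.40 FPKM in pad4 after 2'cADPR, 5.35 ± 1.43 in pad4 after water, 120.1 ± 26.1 in wild type after 2'cADPR and 24.9 ± 2.87 in wild type after water (SD, n = 3 each). The log2 rises in wild type were 1.51 for BAK1, 2.95 for WRKY18 and 2.27 for WRKY33. RBOHF, a respiratory burst oxidase, did not pass in wild type (log2 0.04). None of the 12 was called in pad4, against 0.00509% of all genes, and the interaction was called as lower for 10 of them, against 28.2%. After water 8 were lower in pad4, against 17.5% of all genes, and after 2'cADPR 11 were, against 36.8%.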

How the data were processed

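Messenger RNA was measured in 12 rosette leaf libraries in 4 groups of 3, grouped by the labels' genotype and treatment. The deposited counts are whole-number reads per gene, and the deposited FPKM are the same counts scaled by exon length and library total, per the file headers and values. The submitters' processing notes name fastp, HISAT, HTSeq and TAIR10, and the handling of strand and of overlapping or near-identical genes is not stated. The exon lengths implied by the FPKM equalled those of the TAIR10.1 reference within 1 base for 24121 of 24121 genes compared, so its coordinates and strands were used. The 24 sample files equalled their columns of the tables.

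The fits used edgeR 4.0.16 under R 4.3.3 (library sizes by TMM, filterByExpr with a minimum count of 10, a mean per group over all 12 libraries, two-sided quasi-likelihood F-tests), with Benjamini-Hochberg adjustment over 19652 genes and calls at 0.05. Levels are TMM-scaled FPKM. Library totals of 35.8 to 44.4 M counts gave a median SE of 0.17 log2 units for the members in wild type. Neighbour ratios used pairs with a mean of at least 10 counts and 0.5 added to each count. Alternatives were DESeq2 1.42.0, RLE factors, other filters, a replicate block, fits of 2 groups, a 2-fold threshold and leaving out each library. The members, lists and tests were chosen with earlier results of these data known. Members named with values in every library were the 8 largest called rises and all called falls in wild type, and CRK2, CRK4, CRK5, CRK6, CRK7, CRK10, CRK11, CRK13, CRK20, CRK28, CRK29, CRK36 and CRK45. Other members and genes with values (such as CRK9, CRK21, CRK22, CRK26, CRK38 and CRK40) were chosen after their values were seen, and up to 3 genes a list were named by their adjusted p in wild type, besides RBOHF and the 2 further array neighbours that rose. CRK1, CRK25 and CRK33 were not analysed here.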

Additional observations from a re-analysis of the deposited data

Results flagged for a closer look

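The response to 2'cADPR differed between the genotypes, by the interaction test of edgeR at an adjusted p under 0.05, for 26 of the 38 tested members, and 57.6% of all tested genes differed in the same test. Among the members named with their values, the interaction (pad4 minus wild type, log2) was negative for CRK39 (-5.22), CRK13 (-3.43), CRK20 (-3.29), CRK12 (-2.85), CRK36 (-2.81), CRK31 (-2.42), CRK45 (-2.37), CRK11 (-2.14), CRK7 (-2.14), CRK28 (-1.36), CRK4 (-0.72) and CRK5 (-0.54). It was positive for CRK42 (1.85), CRK16 (1.23), CRK41 (0.57) and CRK10 (0.55). No group held enough libraries for a test of single outlying libraries.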

How the results depend on the processing

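The counts of called members were within 1.5 times the main count under DESeq2, RLE factors, no filter, fits of 2 groups and the replicate block. Exceptions were small counts. Members lower in wild type after 2'cADPR numbered 3 in place of 5 with the filter of 5 CPM in 3 libraries and with the 2-fold threshold. With that threshold the interaction was higher for 2 in place of 4 and pad4 was higher after water for 1 in place of 3. After 2'cADPR, pad4 was higher for 2 in place of 4 members with the 5 CPM filter and with the 2-fold threshold. Leaving out each library in turn gave 25 to 30 rises and 3 to 6 falls in wild type, 0 calls in pad4, 4 to 5 higher and 18 to 25 lower in the interaction, 3 higher and 24 to 30 lower in pad4 after water, and 2 to 4 higher and 32 to 33 lower in pad4 after 2'cADPR. Neighbour pairs without overlap numbered 15 to 17 in wild type and 14 to 17 between genotypes after water, and 7 of the pairs between genotypes also moved by 1 log2 unit, a rule chosen after seeing the data. Replicate numbers did not pair the libraries (correlations of same-numbered deviations of -0.17 to 0.085, none of 18 over 0.1). The replicate block gave 28 rises and 5 falls in wild type, 0 in pad4, 22 lower and 4 higher in the interaction, and 30 lower and 3 higher in pad4 after water.

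Single values of members were followed over all settings, but the response in pad4 only for the 21 members named by rule (largest rises, falls and known roles). These values kept their direction and call in 2937 cases, gained a call in 27, lost one in 67 and changed sign in 20. All of these 20 were uncalled and had 1 library left out. In pad4 the log2 response then ran from -0.22 to 0.14 for CRK4, -0.0018 to 0.24 for CRK10, -0.20 to 0.48 for CRK12, -0.23 to 0.15 for CRK13, -0.91 to 0.40 for CRK20, -0.015 to 0.47 for CRK28 and -0.0034 to 0.37 for CRK45. The interaction ran from -0.73 to 0.30 for CRK23, -1.37 to 0.12 for CRK26 and -0.75 to 0.10 for CRK30. The PAD4 difference was -5.77 with 0.05 CPM added. Few counts limit CRK26, CRK37, CRK38 and CRK39 most in pad4, and CRK20, CRK23, CRK27 and CRK36 had 39 to 82 counts over the 3 libraries of a pad4 group. CRK30 had few counts in wild type, 22 after 2'cADPR and 52 after water. The causes of the other changes were not tested.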
